A study of Mus musculus with 27 samples.

Results

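Pax7, the 4 myogenic basic helix-loop-helix (bHLH) factors and the MEF2 factors were followed in uninjured and injured mouse muscle. The bHLH factors are Myf5, Myod1, Myog and Myf6, and the MEF2 factors Mef2a, Mef2c and Mef2d. These 8 genes were picked by symbol from the 54532 genes of the deposited table, with earlier results of these data known. The muscles were tibialis anterior of C57BL/6 mice that the record describes as male and 8 weeks old. In the injured mice 40% of the muscle had been excised, a model of volumetric muscle loss (VML), and muscles were collected 3, 7, 14 or 21 days later. The control group had no injury and is a single set of muscles set against every day, so all comparisons with it share the same 5 samples. There were 5 control samples and 5, 6, 6 and 5 samples at days 3, 7, 14 and 21, 27 in all, and the labels name no transgene and no other treatment. The methods speak of excision in both legs and the record of 1 leg, and the labels do not say whether any 2 samples came from 1 mouse, so the p-values measure the spread between these samples.

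Satellite cells are the stem cells of skeletal muscle and are marked by the paired-box factor Pax7. After damage they divide, commit to the muscle lineage under Myf5 and MyoD (Myod1), and then differentiate and fuse under myogenin (Myog) and MRF4 (Myf6). The bHLH factors bind E-boxes as dimers with ubiquitous E-proteins, and the MEF2 proteins, MADS-box factors, act beside them on muscle genes. Adult fibres also keep Myf6 and some MyoD in their nuclei, and their denervation is known to raise myogenin, so these mRNAs are not confined to satellite cells. In bulk muscle, fewer cells of a type and less RNA per cell cannot be told apart.

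Levels are given as FPKM, the fragments counted on a gene over its length and over a denominator particular to each sample. As a level per length, FPKM can be compared between genes only as far as the length used fits the transcripts made. That length was 14681 bases for Mef2a, 15715 for Mef2c and 1263 to 5985 for the other members. Its fit to the transcripts of muscle was not tested. The denominator was not the sample's own read total. It was 0.747 to 0.819 times that total in the control muscles and 1.14 to 1.48 times in those of day 3. Changes are differences between group means of log2(FPKM + 1), tested with limma over the 14630 genes that reached 0.5 FPKM in 5 or more samples, and understate the fold of low genes. A gene was called at a Benjamini-Hochberg adjusted p under 0.05 over those genes, two-sided, and all 8 genes passed the filter. FPKM times gene length gave whole reads, with 14376395 to 24436763 reads per sample (median 17398586). In log2 values over all tested genes, 9 of the 27 samples had a group other than their own as the nearest by mean distance, 1 from day 3, 3 each from days 7 and 14, and 2 from day 21. Among them, day 3 replicate 5 lay nearest to day 7, day 7 replicate 5 to day 3, day 7 replicate 3 to the control group and day 7 replicate 6 to day 21, and their values are given beside the results they touch.

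The promoter of Myog is shown because Myog moved the most of the 8 genes and its own regulators are among the others. The Chrng promoter is shown because Chrng, the fetal gamma subunit of the acetylcholine receptor, was among the 3 genes most like Myog over the samples. Myf5 is given as a member with no E-box in its window. Each window is the 250 bases before the RefSeq start site, written 5′ to 3′ on the gene's strand of GRCm38.p6, with motif matches in capitals.
Myog (chr1:134289754-134290003, + strand): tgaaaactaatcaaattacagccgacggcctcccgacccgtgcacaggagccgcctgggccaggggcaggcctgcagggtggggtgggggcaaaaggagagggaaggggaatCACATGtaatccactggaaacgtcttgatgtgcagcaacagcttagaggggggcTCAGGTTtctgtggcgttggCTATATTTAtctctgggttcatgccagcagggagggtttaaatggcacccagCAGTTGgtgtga
Chrng (chr1:87205561-87205810, + strand): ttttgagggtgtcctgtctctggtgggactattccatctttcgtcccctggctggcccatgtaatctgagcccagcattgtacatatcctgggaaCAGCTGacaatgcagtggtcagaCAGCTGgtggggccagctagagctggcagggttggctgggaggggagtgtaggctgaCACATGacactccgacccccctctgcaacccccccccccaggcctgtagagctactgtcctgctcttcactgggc
Myf5 (chr10:107486135-107486384, - strand): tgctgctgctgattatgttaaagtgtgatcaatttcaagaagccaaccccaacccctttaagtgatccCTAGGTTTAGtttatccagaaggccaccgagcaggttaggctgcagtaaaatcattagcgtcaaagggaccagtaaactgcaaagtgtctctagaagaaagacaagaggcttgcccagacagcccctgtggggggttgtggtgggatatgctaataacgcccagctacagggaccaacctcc

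The motifs searched on both strands were the E-box (CANNTG), the binding sequence of bHLH dimers, the MEF3 site of muscle promoters (TCAGGTT) and the MEF2 site by name. With positions counted back from the RefSeq start site, the Myog window held E-boxes at -138 to -133 (CACATG) and at -12 to -7 (CAGTTG) and a MEF3 match at -84 to -78. The last bases of that window, with the second E-box, lie in the first exon of the longer GENCODE M21 model. The strict MEF2 consensus had no match in any window of the 8 genes. A looser MEF2 core, CTANNNNTA, was added after that result was seen, and matched the Myog window at -64 to -56 (CTATATTTA). In the Chrng window there were 3 E-boxes, at -155 to -150, at -132 to -127 and at -75 to -70, and no MEF3 or MEF2 core match. The Myf5 window held only a MEF2 core match at -182 to -174, which overlaps its match on the other strand. Of 32851 RefSeq promoter windows of this length, 66.2% held an E-box, 3.49% the MEF3 site, 2.92% the MEF2 consensus and 18.96% the MEF2 core, and 0.527% held an E-box, the MEF3 site and the core together. Windows were found for 6 of the 8 genes, 8 windows in all. The first Mef2c window held 2 E-boxes and a MEF3 match and the third Mef2c window 1 E-box and a MEF2 core match, while those of Pax7, Mef2a and Mef2d held none of the motifs. These matches describe the sequence and were not tested for binding.

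In uninjured muscle the 8 genes spanned 2 orders of level. Myf6 was the highest (70.7 FPKM ± 9.84, SD, n = 5), and its range did not overlap that of any other member. Mef2c (27.2 ± 2.61) and Mef2d (26.5 ± 2.18) followed with overlapping ranges, then Myod1 (19.1 ± 3.73) and Mef2a (6.35 ± 0.999). Myog (1.78 ± 0.694), Myf5 (0.819 ± 0.245) and Pax7 (0.489 ± 0.222) were lowest, with ranges that overlapped from each to the next. At day 3 the order had changed, with Myog at the top (153 ± 70.1), followed by Myf6 (77.3 ± 10.8) and Myod1 (75.1 ± 25.9), whose ranges overlapped. From day 7 on, Myf6 again had the highest mean, and Myf5 and Pax7 stayed lowest in all 5 groups.

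**Figure D1:**
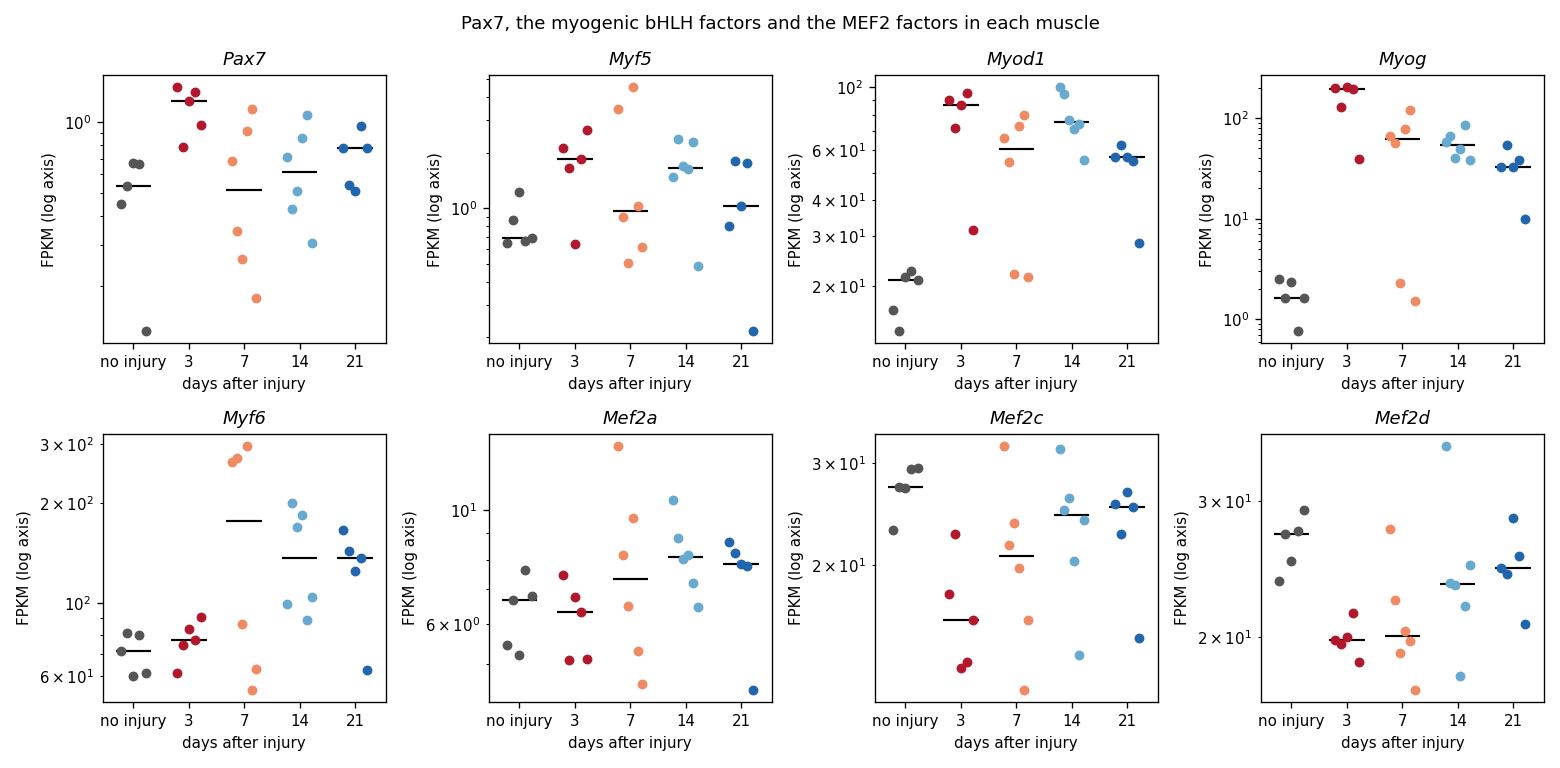
FPKM of each gene in each muscle, on log axes, by group (no injury, then 3, 7, 14 and 21 days after injury), with 1 point per sample and a line at the group median. Myog rose from 0.761 to 2.51 FPKM without injury to 39.6 to 203 at day 3, and 2 of the 6 day 7 muscles lay at control levels of Myog and Myod1.

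Against uninjured muscle, Pax7, Myod1 and Myog were called higher at day 3, 3 of the 8 genes, and 2 were lower (Mef2c and Mef2d), where 23.4% of all tested genes were called higher and 19.8% lower. Of the 3 other scalings tried, that by median ratios hardly changed the values, moving the median of all genes at day 3 by -4.96e-05. The deposited values were thus already close to that scaling, which is no separate check of them. Under the other 2 neither gene was called lower. The direction of Mef2d turned under both of these and that of Mef2c under 1, as given with their values. Myod1 and Myog were the only ones called at the later days, both higher. That is 2 of 8 higher and 0 lower on each of days 7, 14 and 21, where 15%, 9.02% and 1.74% of all tested genes were called higher and 14.4%, 11.3% and 1.69% lower. At an unadjusted p under 0.05, the numbers were 5, 4, 3 and 2 of the 8 genes at days 3, 7, 14 and 21, beside 49.6%, 41.7%, 34.7% and 19.8% of all tested genes. The limma fit with voom weights on the recovered reads called 5, 2, 2 and 1, beside 42.2%, 29.4%, 18.6% and 1.93% of all tested genes. The median change of the 8 genes was 0.33, 0.34, 0.41 and 0.19 at days 3, 7, 14 and 21, beside 0.01, 0.03, 0.02 and 0.01 for all tested genes.

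**Figure D2:**
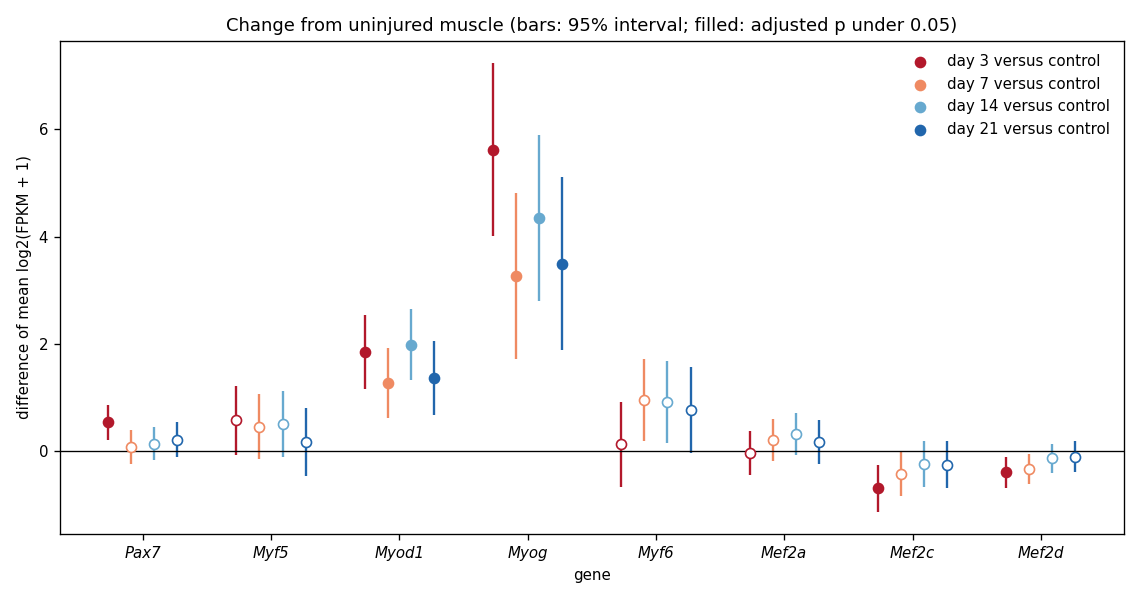
Difference of mean log2(FPKM + 1) from uninjured muscle for each gene (x axis) at days 3, 7, 14 and 21, with bars for the 95% interval and filled points where the adjusted p was under 0.05. Myog and Myod1 are filled at all 4 days, whereas Pax7, Mef2c and Mef2d are filled at day 3 only.

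Pax7 (ENSMUSG00000028736, chr4:139737062-139833528, - strand), which keeps the satellite cell pool, was measured on few reads, 11 to 233 per sample. In the control muscles it stood at 0.448, 0.535, 0.669, 0.665 and 0.128 FPKM, and at day 3 at 1.41, 0.782, 1.24, 1.35 and 0.978. The 2 groups did not overlap, and all 5 muscles of day 3 lay above all controls. On the log2 scale this was 0.54 ± 0.16 (SE) higher, with an adjusted p of 0.00846 in limma, and the mean FPKM was 2.35 times that of the control group. At day 7 Pax7 ran from 0.178 to 1.14 (median 0.514) and at day 14 from 0.304 to 1.08 (median 0.612), in each case with 3 of 6 muscles inside the control range. At day 21 the values were 0.779, 0.538, 0.509, 0.965 and 0.780, of which 3 lay above all controls. None of these later groups was called (limma adjusted p 0.762, 0.535 and 0.488), with 95% intervals for the log2 difference of -0.24 to 0.39, -0.17 to 0.46 and -0.12 to 0.54.

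The other satellite cell genes of a fixed list, 14 of 16 tested, had 8 called higher and 0 lower at day 3, with a median change of 0.58. Of all tested genes 23.4% were called higher and 19.8% lower at day 3. Cxcr4, a chemokine receptor, rose from 3.63 ± 1.19 to 17.1 ± 5.79 FPKM (log2 1.95 ± 0.38 SE, limma adjusted p 0.000241), and the growth factor receptor Fgfr4 from 0.891 ± 0.314 to 5.87 ± 1.56 (1.85 ± 0.29, 2e-05). Cdh15, Vcam1, Itga7, Sdc3, Megf10 and Met were the other 6, and several of them are also made by fibres, endothelium or other cells of muscle. At days 7, 14 and 21 the list had 3, 2 and 0 genes called higher and 0 lower. The shares of all tested genes were then 15%, 9.02% and 1.74% higher and 14.4%, 11.3% and 1.69% lower. Pax3 (at most 0.252 FPKM) and Calcr (at most 0.310 FPKM) did not pass the filter.

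Myf5 (ENSMUSG00000000435, chr10:107482908-107486134, - strand), an early commitment factor, was also measured on few reads, 5 to 214 per sample. Its control values were 0.649, 0.865, 1.23, 0.663 and 0.689 FPKM and its day 3 values 2.12, 1.64, 0.637, 1.85 and 2.66, so that 4 of 5 injured muscles lay above and 1 below all controls. Day 7 was the most uneven, from 0.507 to 4.54 (median 0.966), and day 14 ran from 0.489 to 2.37 (median 1.66). Myf5 was not called on any day in the fit as designed. Its log2 differences from control were 0.57 ± 0.31 (SE), 0.46 ± 0.30, 0.51 ± 0.30 and 0.17 ± 0.31 over the 4 days, with limma adjusted p from 0.142 to 0.805. It was called higher at day 3 in the fit of only those 2 groups (limma adjusted p 0.0263), after rescaling to a common total FPKM (0.0318) and with each sample's own read total as denominator (0.0367). At day 7 it was called with the common total (0.0489) and without replicates 3 and 6 (0.0397).

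Myod1 (ENSMUSG00000009471, chr7:46376474-46379099, + strand), the factor that can turn other cells into muscle, was higher than in uninjured muscle at every day. The control muscles held 16.5, 13.9, 21.4, 22.6 and 21.1 FPKM, and those of day 3 held 90.0, 72.0, 86.9, 95.2 and 31.4. All day 3 values lay above all controls, the lowest of them in replicate 5. At day 7 Myod1 ran from 21.6 to 80.1 (median 60.6), with replicates 3 and 6, at 21.98 and 21.6, inside the control range. At day 14 it ran from 55.4 to 100.3 (median 75.5), and at day 21 it stood at 56.8, 63.0, 56.8, 54.9 and 28.4, in both cases with no overlap with the controls. The group means were 3.93, 2.78, 4.13 and 2.72 times the control mean at days 3, 7, 14 and 21. The log2 differences were 1.85 ± 0.34 (SE), 1.27 ± 0.32, 1.99 ± 0.32 and 1.37 ± 0.34, with limma adjusted p of 0.000115, 0.00507, 0.000329 and 0.0231. The call at day 21 was lost without control replicate 1 (adjusted p 0.0530), control replicate 2 (0.0637), day 21 replicate 1 (0.0566) or day 21 replicate 2 (0.0701). It was also lost with no filter on low values (0.0570), with a common total FPKM (0.198) and with own read totals as denominator (0.0829).

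Myog (ENSMUSG00000026459, chr1:134289989-134292548, + strand), which drives terminal differentiation, had the largest difference among the 8 genes at each day. In uninjured muscle it was near the bottom, at 2.51, 1.63, 2.34, 0.761 and 1.65 FPKM, on 14 to 50 reads per sample. At day 3 it stood at 197, 129.7, 203, 195 and 39.6, on 1260 to 8025 reads, which is far above every control value. At day 7 it ran from 1.503 to 121 (median 61.3), and the 2 lowest muscles, replicates 3 (2.32) and 6 (1.503), lay inside the control range. At day 14 Myog ran from 38.4 to 84.4 (median 53.7), and at day 21 it was 32.7, 53.4, 32.6, 38.3 and 9.95. All 11 muscles of these 2 days lay above all controls. The mean FPKM was 86.1, 30.5, 31.6 and 18.8 times that of the control group at days 3, 7, 14 and 21. On the log2(FPKM + 1) scale the differences were 5.63 ± 0.78 (SE), 3.27 ± 0.75, 4.35 ± 0.75 and 3.50 ± 0.78, with limma adjusted p of 6.34e-06, 0.00267, 0.000527 and 0.0146. With voom weights the calls at day 7 (adjusted p 0.0667) and day 21 (0.164) were lost.

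Myf6 (ENSMUSG00000035923, chr10:107492853-107494737, - strand) encodes MRF4, the bHLH factor most abundant in adult fibres, and lies 6718 bases from Myf5. Its level at day 3 (61.4, 74.4, 83.1, 77.3 and 90.3 FPKM) overlapped that of the control muscles (71.3, 80.8, 60.1, 80.0 and 61.4), with a log2 difference of 0.13 ± 0.39 (SE) and a limma adjusted p of 0.824. At day 7 it fell into a high set and a low set. Replicates 1, 2 and 4 held 266, 273 and 297, whereas replicate 3 held 86.0, replicate 5 held 54.6 and replicate 6 held 63.2. At day 14 it ran from 89.0 to 200.5 (median 137), above all controls in 6 of 6 muscles, and at day 21 it was 165, 143, 125, 136 and 62.9, above all controls in 4 of 5. The log2 differences at days 7, 14 and 21 (0.95 ± 0.37, 0.92 ± 0.37 and 0.77 ± 0.39) were not called (limma adjusted p 0.0553, 0.0790 and 0.270). Without day 7 replicates 3 and 6, a choice made after seeing the data, Myf6 was called at day 7 (log2 1.39, limma adjusted p 0.00436). That fit called 40.4% of all genes there. Without the day 7 and day 3 muscles numbered 5, which also stood out in these same values, Myf6 was called there too (1.21, 0.0168). Over the alternatives tried, the adjusted p ran from 0.00436 to 0.150 at day 7 and from 0.0118 to 0.167 at day 14.

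The 4 bHLH factors made up 92.4 ± 8.21 FPKM together in the control muscles (SD, n = 5) and 307 ± 88.9, 282 ± 156, 278 ± 56.4 and 213 ± 65.1 at days 3, 7, 14 and 21. Their make-up shifted as well. Myf6 held 70.6% to 83.2% of the sum without injury and 17.5% to 55.1% at day 3, the highest of these in replicate 5. By day 21 its share was 54.8% to 64.7%. Myog held 0.731% to 2.76% without injury, 24.2% to 56.2% at day 3 and 9.81% to 20.4% at day 21, so that day 3 and day 21 did not overlap. The share of Myod1 had medians of 21.7%, 25.7%, 18.2%, 27.3% and 24.1% from control to day 21, and Myf5 stayed under 2% in every muscle. The ratio of Myog to Myod1 FPKM had a median of 0.109 without injury (0.0337 to 0.152) and of 2.05 at day 3 (1.26 to 2.34). At days 7, 14 and 21 the medians were 1.01 (0.0697 to 1.51), 0.692 (0.527 to 1.14) and 0.577 (0.351 to 0.848). The ratios of day 14 and day 21 thus lay above all controls and below all muscles of day 3.

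**Figure D3:**
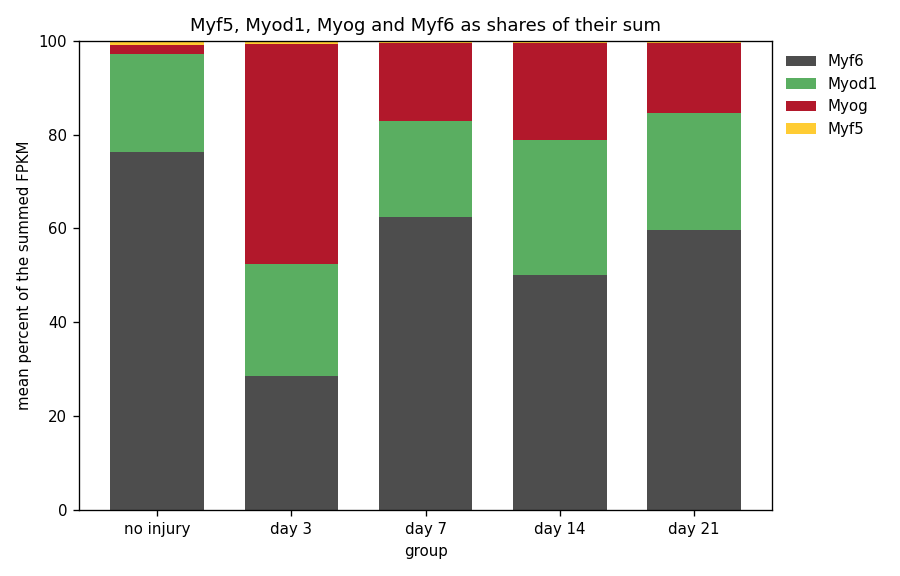
Stacked bars of the mean percent that Myf6, Myod1, Myog and Myf5 take of their summed FPKM in each group, on an axis from 0 to 100 percent. Myf6 takes a mean of 76.3% without injury and 28.5% at day 3, where Myog takes 46.9%, and Myf6 is again the largest share from day 7 on (62.4%, 50.01% and 59.7%).

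The MEF2 genes moved little beside Myog. Mef2c (ENSMUSG00000005583, chr13:83504034-83667080, + strand), needed for fibre integrity after birth, stood at 22.98, 27.3, 27.1, 29.3 and 29.4 FPKM without injury. At day 3 it stood at 17.9, 22.6, 13.3, 13.6 and 16.1, below all controls in 5 of 5 muscles. The log2 difference was -0.69 ± 0.21 (SE, limma adjusted p 0.0107), and the mean was 0.614 times that of the control group. At days 7, 14 and 21 the means were 0.768, 0.863 and 0.844 times the control mean and were not called (adjusted p 0.122, 0.422 and 0.538), except at day 7 without day 7 replicate 1 (limma adjusted p 0.0438). Mef2d (ENSMUSG00000001419, chr3:88142372-88172086, + strand), whose muscle splice form activates late muscle genes, stood at 23.6, 27.2, 25.05, 27.4 and 29.2 without injury and at 19.8, 19.6, 20.0, 21.5 and 18.6 at day 3. These groups did not overlap either, with a log2 difference of -0.39 ± 0.14 (limma adjusted p 0.0233), and the call was lost without control replicate 5 (adjusted p 0.0575). Mef2d at day 7 lay below all controls in 5 of 6 muscles (log2 -0.33 ± 0.13, adjusted p 0.0599), and was called there without day 7 replicate 1 (limma adjusted p 0.0239), day 14 replicate 1 (0.0283) or day 14 replicate 4 (0.0477). Its gene overlaps an antisense transcript, 1700113A16Rik, from which the non-directional libraries cannot separate it.

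The lower Mef2c and Mef2d at day 3 depended on how samples were scaled. When every sample was rescaled to the same total FPKM, which moved the median of all genes at day 3 by 0.49, Mef2c was at 0.09 and Mef2d at 0.40, neither called lower. With each sample's own read total as denominator, an alternative added after seeing the data that moved that median by 0.39, they were at -0.06 and 0.24. Such a rescaling multiplies all genes of a sample by the same factor, and on log2(FPKM + 1) it moves low genes less than high ones. The median gene was then at 0.51 with the common total and at 0.40 with own read totals. Both genes lay below it under each, which is no separate evidence of a decrease, as the same factor was applied to all genes. In the deposited scaling the median gene was at 0.01. With the common total and with own read totals, 95.5% and 91.4% of the genes called at day 3 were higher, against 54.1% with the deposited values. Myog and Myod1 were called higher at days 3, 7 and 14 under both. At day 21 the common total lost the calls of both (limma adjusted p 0.0839 for Myog and 0.198 for Myod1), and own read totals lost that of Myod1 (0.0829).

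Mef2a (ENSMUSG00000030557, chr7:67231163-67372858, - strand), expressed in many tissues, was not called on any day in the fit as designed. Without injury it ran from 5.22 to 7.63 FPKM, and at days 3, 7, 14 and 21 from 5.10 to 7.46, 4.57 to 13.3, 6.48 to 10.4 and 4.45 to 8.67. The log2 differences from control were -0.04 ± 0.20 (SE), 0.21 ± 0.19, 0.32 ± 0.19 and 0.17 ± 0.20, with limma adjusted p from 0.240 to 0.889. At day 7 it was called higher with a common total FPKM (limma adjusted p 0.0368) and with own read totals (0.0442). Mef2a overlaps Lysmd4 on the opposite strand (0.784 to 2.28 FPKM) and 2 short models, Gm44667 and Gm44668, and reads of the first cannot be told apart by strand.

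Between injured groups fewer differences passed. From day 3 to day 7, 0 of the 8 genes were called by limma and 0 with voom weights, where 0% of all tested genes were called higher and 0.0478% lower. At an unadjusted p under 0.05 there were 3, Pax7 (log2 -0.47 ± 0.15, SE), Myog (-2.36 ± 0.75) and Myf6 (0.82 ± 0.37), beside 15.7% of all tested genes. Without replicate 5 of day 3 and of day 7, the 2 samples nearest to each other's group, 4 were called, in a fit that called 2265 of the 14630 genes (15.5%) where that of all samples called 7. These were Pax7 (-0.59, adjusted p 0.0118), Myod1 (-1.01, 0.0228) and Myog (-3.24, 0.00328), all lower at day 7, and Myf6 (1.15, 0.0402), higher. Both samples stood out in these same values, so leaving them out draws the 2 groups apart, and the 4 calls are no separate support. From day 7 to day 14, 0 of the 8 were called by either fit, beside 0.116% of all genes higher and 0.219% lower, and 1 had an unadjusted p under 0.05, Myod1 (0.72 ± 0.31), beside 12.4% of all genes. From day 14 to day 21 it was 0 of the 8 called by either fit and 0 at an unadjusted p under 0.05, beside 0% of all genes in each direction, 0 of 14630 by limma and 0 with voom weights, with 909 and 870 at an unadjusted p under 0.05.

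Across the whole interval, from day 3 to day 21, Myog was lower (log2 -2.13 ± 0.78, SE, limma adjusted p 0.0473), 1 gene lower and 0 higher beside 16.2% and 9.23% of all tested genes. The call was lost in 19 of the 27 fits that left out 1 sample, the adjusted p reaching 0.124 without day 21 replicate 5. Among them were all fits without a control or day 14 sample, which are not compared here. These left the log2 at -2.13, with limma adjusted p of 0.0507 to 0.0539. Day 3 ran from 39.6 to 203 FPKM and day 21 from 9.95 to 53.4, so that day 3 replicate 5 lay within the range of day 21. Pax7 (-0.33 ± 0.16), Myf6 (0.64 ± 0.39), Mef2c (0.44 ± 0.21) and Mef2d (0.29 ± 0.14) were not called, with adjusted p of 0.137, 0.230, 0.137 and 0.123.

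E-proteins and inhibitors of the bHLH factors came next, 17 of 18 genes of a fixed list being tested. At day 3, 10 were called higher and 2 lower, with a median change of 0.68, beside 23.4% and 19.8% of all tested genes. Snai1, a repressor that competes for E-boxes, rose from 0.756 ± 0.251 to 6.54 ± 2.50 FPKM (log2 2.05 ± 0.30 SE, limma adjusted p 9.15e-06), and Mdfi, a cytoplasmic inhibitor of MyoD family proteins, from 0.276 ± 0.208 to 3.81 ± 2.88 (1.77 ± 0.61, 0.0198). The repressors Bhlhe41 (11.7 ± 2.30 to 5.22 ± 1.38, log2 -1.05 ± 0.23, limma adjusted p 0.000634) and Bhlhe40 (24.1 ± 3.91 to 15.1 ± 4.81, -0.67 ± 0.22, 0.0144) were lower. Of all tested genes, 15%, 9.02% and 1.74% were higher and 14.4%, 11.3% and 1.69% lower on the later days. In the list 2, 0 and 0 were lower and 6, 6 and 3 higher. Those 3 were Id1 (14.7 ± 6.56 to 36.5 ± 6.02, log2 1.36 ± 0.38, adjusted p 0.0427), Id2 (1.74 ± 0.659 to 6.30 ± 0.992, 1.43 ± 0.27, 0.00424) and Id3 (1.16), which lack a DNA-binding region and hold E-proteins away from DNA. Twist2 did not pass the filter.

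Of 17 other transcription factors that act upstream of the bHLH genes, 4 were higher and 4 lower at day 3 (median -0.31). These counts lay near the shares of all tested genes, 23.4% higher and 19.8% lower. Runx1, which rises in denervated muscle, went from 0.154 ± 0.0666 to 4.05 ± 1.67 FPKM (log2 2.05 ± 0.40 SE, limma adjusted p 0.000210) and the homeobox gene Meox1 from 1.77 ± 0.535 to 5.65 ± 1.07 (1.27 ± 0.27, 0.000519). The cofactor Vgll2 (93.4 ± 24.9 to 38.03 ± 11.5, log2 -1.28 ± 0.26, limma adjusted p 0.000341) was lower. Later there were 3, 4 and 1 higher and 4, 3 and 0 lower. All tested genes had shares of 15%, 9.02% and 1.74% higher and 14.4%, 11.3% and 1.69% lower there. At day 21 Runx1 (2.88 ± 1.23, log2 1.68 ± 0.40, limma adjusted p 0.0188) was the single one higher.

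The list of MEF2 cofactors, kinases and repressors, 19 of 20 tested, had 4 genes higher and 7 lower at day 3 (median -0.21). The shares of all tested genes were 23.4% higher and 19.8% lower. Camk2a, a kinase that relieves repression of MEF2 (46.9 ± 8.53 to 15.4 ± 3.61 FPKM, log2 -1.56 ± 0.33 SE, limma adjusted p 0.000500), and the calcineurin subunit Ppp3cb (31.8 ± 4.45 to 10.4 ± 2.17, -1.54 ± 0.25, 3.13e-05) fell the most. Sik1, a kinase of class II histone deacetylases (1.97 ± 1.15 to 4.92 ± 1.57, log2 1.04 ± 0.34, limma adjusted p 0.0157), and Mapk7 (1.41 ± 0.314 to 3.38 ± 0.558, 0.86 ± 0.19, 0.000648) rose. There were 3 higher and 4 lower at day 7 and 6 and 4 at day 14. All tested genes had shares of 15% higher and 14.4% lower at day 7, 9.02% and 11.3% at day 14, and 1.74% and 1.69% at day 21. At day 21 the 2 higher were the repressor Hdac4 (2.22 ± 0.480 to 5.28 ± 1.46, log2 0.94 ± 0.27, adjusted p 0.0483) and the MEF2 coactivator Mamstr (7.12 ± 1.72 to 13.3 ± 2.67, 0.83 ± 0.20, 0.0215), and the 1 lower was Mapk14 (23.99 ± 5.03 to 14.7 ± 2.98, -0.67 ± 0.17, 0.0289). Hdac9 did not pass the filter.

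Targets of the bHLH and MEF2 factors had the highest counts called higher of the 5 lists, and were also the largest list. There were 14 of 23 higher at each of days 3, 7 and 14 and 6 at day 21. The shares of all tested genes were 23.4%, 15%, 9.02% and 1.74%. At day 3 the lists of E-proteins and inhibitors and of other satellite cell genes had 10 of 17 and 8 of 14 higher. Lower targets numbered 4, 3, 3 and 0, beside 19.8%, 14.4%, 11.3% and 1.69% of all tested genes. The median change of the targets was 2.04, 1.20, 1.48 and 1.08. Mymk, the membrane protein myomaker that is needed for myoblast fusion, rose from 0.242 ± 0.214 to 73.5 ± 29.3 FPKM at day 3 (log2 5.77 ± 0.65 SE, limma adjusted p 5.45e-07) and the embryonic myosin Myh3 from 0.516 ± 0.176 to 55.2 ± 15.6 (5.16 ± 0.68, 3.23e-06). In contrast the adult fibre genes Ckm (4196 ± 938 to 1571 ± 365, log2 -1.43 ± 0.33, adjusted p 0.00125) and Myl1 (8782 ± 755 to 3744 ± 2270.3, -1.41 ± 0.37, 0.00341) fell. At day 21 Chrng was at 8.74 ± 3.62 against 0.0599 ± 0.0502 without injury (log2 3.10 ± 0.56, adjusted p 0.00370) and Mymk at 9.94 ± 5.36 (3.01 ± 0.65, 0.0125). These lists and the 8 genes share the control samples, and neither the lists' counts nor their order were tested against other genes.

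Genes whose level followed each factor most closely were found by Pearson r of log2(FPKM + 1) over the 27 samples, which share groups and scaling, so r is a description. Nearest to Myog were Mymk (r = 0.971, and 0.954 for deviations from group means), Mymx, the second fusion gene (0.961 and 0.909), and Chrng (0.956 and 0.917). Day 7 replicates 3 and 6 lay far below their group in Myog (2.32 and 1.503 FPKM, group median 61.3), and r without them was not taken. Mymx, like Mymk, was near 0 in uninjured muscle (0.0931 ± 0.208 FPKM) and stood at 38.9 ± 19.6 on day 3 and 9.41 ± 8.09 on day 21. Myod1 was most like Runx1 (0.945 and 0.886), Chrng (0.937 and 0.927) and Myog itself (0.936 and 0.895). For Myf6 they were Zhx2 (0.918), Nabp1 (0.912) and Sh2d4a (0.9), and for Mef2c Prob1 (0.921), Ubr3 (0.909) and Tmem64 (0.903). Mef2a was nearest to Nbr1 (0.890), Ranbp9 (0.882) and Lrba (0.869), and Mef2d to Ankrd11 (0.815), Huwe1 (0.811) and Mia2 (0.786). Pax7 followed Tmem206 (0.867), Fblim1 (0.821) and Cklf (0.819), and Myf5 followed Zdbf2 (0.807), Mroh2a (0.771) and Runx2os1 (0.762). Among the 8 genes themselves, r was 0.936 for Myod1 with Myog, 0.767 for Myf6 with Mef2a and 0.741 for Mef2c with Mef2d. It was 0.522 for the neighbours Myf5 and Myf6 and 0.342 for Myog with Myf6.

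Markers of other cells changed in the same samples. The 12 markers of mature fibres summed to 97106 to 115069 FPKM without injury, so markers of the labelled tissue were present, and at days 3, 7, 14 and 21 to 24187 to 72077, 30546 to 115503, 49659 to 115318 and 83899 to 120874. Of these, 10 were called lower at day 3 and 0 higher, then 5, 1 and 0 lower. The 8 macrophage and leukocyte markers summed to 23.4 to 35.6 FPKM, then 447 to 2510.1, 61.9 to 2425, 59.03 to 139 and 47.4 to 79.7, with 8, 7, 3 and 0 called higher. The 6 markers of dividing cells summed to 9.24 to 11.8 without injury and 27 to 64.1 at day 3, with 6 of 6 higher. At day 3, 5 of 6 fibroblast and fibro-adipogenic markers were higher, 3 of 6 endothelial markers lower, 1 of 6 smooth muscle and pericyte markers higher and 2 lower, and 0 of 6 Schwann cell and 0 of 4 tested adipocyte markers called by limma. Over all tested genes 23.4%, 15%, 9.02% and 1.74% were called higher and 19.8%, 14.4%, 11.3% and 1.69% lower at days 3, 7, 14 and 21. No marker of these lists was at 0 in all samples. The part of these cells in the changes of the 8 genes was not tested.

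Some samples that stood apart in the myogenic factors also did so in markers. Day 7 replicate 5, with fibre markers at 30546 and leukocyte markers at 2425 FPKM, had the highest Myog of its group (121) and the lowest Myf6 (54.6). Day 7 replicates 3 and 6, with fibre markers at 115503 and 106227 and leukocyte markers at 168 and 61.9, had Myog of 2.32 and 1.503. In replicate 6 the 6 Schwann cell markers summed to 1058, where no other sample of any group was above 229.7. Day 3 replicate 5, with fibre markers at 72077 and leukocyte markers at 447, had the lowest Myog (39.6) and the highest Myf6 (90.3) of day 3. Day 21 replicate 5 had the lowest Myog of its group (9.95). It lay inside the range of the other day 21 muscles in fibre (88628), leukocyte (62.5) and fibroblast and fibro-adipogenic markers (233). It lay above that range in endothelial (101), smooth muscle and pericyte (275), Schwann cell (112) and adipocyte markers (130), and below it in dividing cell markers (8.06). The day 14 and day 21 muscles had leukocyte sums of 47.4 to 139, all above the highest control (35.6), and Myog of 9.95 to 84.4. The 61.9 of day 7 replicate 6 lay inside that range of leukocyte sums.

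**Figure D4:**
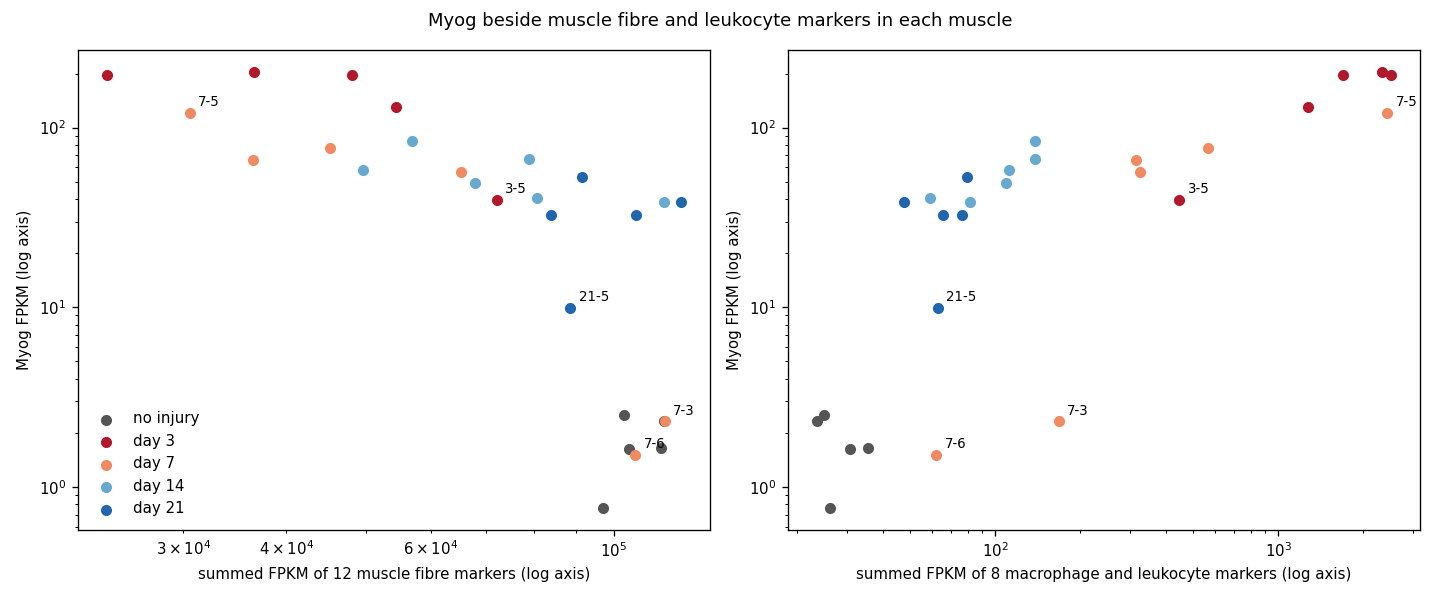
Myog FPKM (y axis, log) of each muscle against the summed FPKM of 12 fibre markers (left, log axis) and of 8 macrophage and leukocyte markers (right, log axis), coloured by group, with day and replicate written beside 5 samples (7-3 is day 7 replicate 3). Day 7 replicates 3 and 6 lie among the uninjured muscles in Myog (2.32 and 1.503). In fibre markers replicate 6 (106227) lies inside the uninjured range of 97106 to 115069 and replicate 3 (115503) just above it. The day 14 and day 21 muscles hold 9.95 to 84.4 FPKM of Myog at leukocyte sums of 47.4 to 139, above the uninjured range of 23.4 to 35.6.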

How the data were processed

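RNA of 27 tibialis anterior muscles was sequenced after poly-A selection as non-directional libraries. Per the labels and the submitters' processing notes, reads were aligned with HISAT2 2.0.5 and counted with featureCounts 1.5.0-p3, and the authors deposited FPKM for every gene beside its length and position. Their denominators were 0.747 to 1.48 times each sample's own read total, and these factors were lower in all control muscles than in all those of day 3. The sources used here do not name that scaling, but scaling by median ratios hardly changed the deposited values. Products of FPKM and length were whole within 0.02 reads for 100% of values below 1000 reads. All sample columns were matched to samples by name. Positions were checked against GENCODE M21 (GRCm38), where 54409 genes were found, 98.3% with the same coordinates, all 8 members among them.

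Groups were read from sample titles. FPKM was transformed to log2(FPKM + 1), filtered at 0.5 FPKM in 5 samples and fitted with limma 3.58.1 (R 4.3.3), a mean per group, 1 fit of all samples and a variance trend. The study's methods name limma on log-transformed FPKM. The pseudocount, filter and variance trend were chosen here, and the normalization those methods mention was not repeated. The fit was tested on simulated data. Tables were made in Python 3.11.15 (pandas 2.3.3, numpy 2.4.6) and figures with matplotlib 3.10.9. The 8 members and the gene lists were chosen with earlier results of these data known. Named are all 8 members, the 3 genes most like each by Pearson r, and from each of 5 pathway lists the 2 genes with the largest increase and decrease among those called at day 3 and at day 21. One gene that this rule names is not reported here. Further list genes given without a full test were named after their values were seen. Alternatives were other pseudocounts, filters, scalings and samples, replicate blocks and voom weights. Promoters come from RefSeq (GRCm38.p6), with no entry for Myod1, Myf6, Mymk or Mymx. Intervals cover the spread between samples only.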

Additional observations from a re-analysis of the deposited data

Results flagged for a closer look

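In 5 of the 40 combinations of gene and group, 1 sample stood far from the others by Dixon's criterion, where chance gives about 5% of groups. All 5 were the lowest value of replicate 5 of day 3 or day 21. At day 3 that muscle held 31.4 FPKM of Myod1 and 39.6 FPKM of Myog. The muscle numbered 5 at day 21 held 28.4 FPKM of Myod1, 4.45 FPKM of Mef2a and 14.9 FPKM of Mef2c. Its Myog (9.95 FPKM) was also the lowest of day 21.

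The change of Myog from control was smaller at day 21 than at day 3, by a log2 difference of -2.13 (limma adjusted p 0.0473), on the same 5 control samples. This call was kept in 17 of 41 alternatives and lost in 19 of the 27 fits that left out 1 sample.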

How the results depend on the processing

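Over 64 results (8 genes in 8 comparisons) and 41 alternatives, 24 results kept direction and side of the threshold in every one. The sign changed somewhere in 26, of which 2 were called, Mef2c and Mef2d at day 3. Against control, the numbers of genes called at days 3 and 14 stayed within 1.5 times. At day 7 they went from 2 to 5 with a common sum, 4 with own read totals and 4 without day 7 replicates 3 and 6, and calls over all genes from 4296 to 6513, 5772 and 5908. At day 21 they went from 2 to 1 without a filter, 0 with a common sum, 1 with voom weights and 1 with own read totals. From day 3 to day 7, 0 became 4 without replicate 5 of both days, each nearest to the other day's group in these same values. Calls over all 14630 genes then went from 7 to 2265. From day 3 to day 21, 1 became 0 with a pseudocount of 0.1 or 0.5, no filter, the replicate letter as a block or voom weights, and 2 with a common sum or own read totals. Leaving out 1 sample gave 2 to 4 at day 7 (4 without day 7 replicate 1), 1 to 2 at day 21, 0 to 3 from day 3 to day 7 (1 without day 3 replicate 5 and 3 without day 7 replicate 5, with 730 and 1792 of all genes called) and 0 to 1 from day 3 to day 21. The cause was not tested.

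Signs changed as follows (log2 values). With a common sum, against control, Mef2a was at 0.67 at day 3, Mef2c at 0.094, 0.28 and 0.22 and Mef2d at 0.40, 0.37 and 0.32 at days 3, 7 and 14, and Mef2d at 0.085 at day 21. From day 3 to day 7 Mef2d was at -0.027. From day 7 to day 14 Pax7 was at -0.080, Myf5 at -0.15, Mef2a at -0.13, Mef2c at -0.059 and Mef2d at -0.046. From day 14 to day 21 Pax7 was at -0.062 and Mef2d at -0.24, and from day 3 to day 21 Mef2a was at -0.33, Mef2c at -0.16 and Mef2d at -0.31. With own read totals, against control, Mef2a was at 0.53 at day 3, Mef2d at 0.24, 0.20, 0.25 and 0.085 at days 3 to 21, and Mef2c at 0.11 and 0.15 at days 7 and 14. From day 3 to day 7 Mef2d was then at -0.044, and from day 7 to day 14 Pax7 at -0.018, Myf5 at -0.068 and Mef2a at -0.035. From day 14 to day 21 Pax7 was at -0.031 and Mef2d at -0.16, and from day 3 to day 21 Mef2a was at -0.19, Mef2c at -0.010 and Mef2d at -0.16. Without replicate 5 of days 3 and 7, Mef2a at day 3 was at 0.012, Pax7 at day 7 at -0.023, and Myf5 at 0.051 from day 3 to day 7 and -0.0058 from day 7 to day 14. Without day 7 replicates 3 and 6, Myf5 was at 0.22 from day 3 to day 7, and from day 7 to day 14 Pax7 was at -0.10, Myf5 at -0.28, Myog at -0.50 and Mef2a at -0.091.

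Leaving out 1 sample, values that changed sign ran from -0.10 to 0.020 for Mef2a at day 3, -0.026 to 0.15 for Pax7 at day 7, -0.35 to 0.026 for Myf5 and -0.016 to 0.12 for Mef2d from day 3 to day 7. From day 7 to day 14 they ran from -0.017 to 0.26 for Mef2a, -0.092 to 0.28 for Myf5, -0.29 to 0.19 for Myf6 and -0.0087 to 0.16 for Pax7. From day 14 to day 21 they ran from -0.20 to 0.0048 for Mef2a, -0.15 to 0.12 for Mef2c, -0.047 to 0.14 for Mef2d and -0.27 to 0.081 for Myf6.

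Whether samples with the same replicate number shared more than that number is not settled here. The correlation of their deviations from group means ran from -0.52 to 0.57 over 51 pairs (median -0.0031), with 15 over 0.1. Calls over all genes at day 21 against control went from 502 to 795 with the replicate block and to 1233 with the letter as a block. With the replicate block, Myf6 was called at day 7 (1.10, limma adjusted p 0.0105) and day 14 (1.07, 0.0170), Myf5 was at 0.023 from day 3 to day 7 and Pax7 at -0.0026 from day 14 to day 21. Pax7 and Myf5 rest on 5 to 233 reads per sample, which limits what their comparisons can show.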
